A study of Mus musculus with 57 samples.

Results

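The extracellular matrix genes described here are 39 genes for collagens, laminins, proteoglycans and other secreted matrix proteins, taken as a list of gene symbols out of 26089 genes of the curated RefSeq annotation of mm10. They were divided by the known place of their products into 12 interstitial genes, 13 basement membrane genes, 6 genes for fibronectin and matricellular proteins, and 8 brain hyaluronan genes, whose products form the perineuronal nets and related brain matrix. No value of the histone marks was used to pick them, although results from these data were already known when the list was made.

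Interstitial collagens and small leucine-rich proteoglycans are made mainly by fibroblasts and form the fibrous tissue between muscle fibres. Basement membranes are thin sheets of laminin, type IV collagen, nidogen and perlecan that lie beneath endothelium and around every muscle fibre. The adult brain holds little fibrous collagen, and its matrix is instead built on hyaluronan, to which lecticans (aggrecan, brevican, neurocan and versican) are fixed by link proteins and crosslinked by tenascin-R. H3K4me3 marks the start of genes that are or can be transcribed, H3K27ac marks active promoters and enhancers, and H3K27me3 is laid down by Polycomb complexes on silent developmental genes.

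Chromatin was immunoprecipitated with antibodies to the 3 marks from brain cortex and gastrocnemius, a hindlimb muscle, of PSAPP mice killed at 13 months of age. All animals carried the mutant human presenilin 1 and the mutant chimeric mouse/human amyloid precursor protein transgenes, so that no comparison with non-transgenic mice is possible, and all received a fixed daily ration of a modified purified diet. For each mark there were 9 libraries of cortex and 10 of gastrocnemius, 57 in all, from 10 mice, of which 9 gave both tissues. The sex of the animals is not in the labels and the libraries were not divided by it.

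Reads in called peaks ranged from 9159253 to 18993192 per library for H3K4me3, from 3935242 to 27268192 for H3K27ac and from 2994888 to 18247332 for H3K27me3. The libraries that stood apart were the H3K27ac library of cortex replicate 9 with the lowest total of that mark and the H3K27me3 library of gastrocnemius replicate 5 with the highest of its mark. For H3K4me3, 19082 to 24747 peaks were called per cortex library and 21309 to 29749 per gastrocnemius library. These numbers were 46458 to 75261 and 46660 to 68046 for H3K27ac, and 38911 to 55772 and 26954 to 42176 for H3K27me3.

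Levels are given as reads of called peaks that fall in a window, such as the 1 kb on each side of the transcription start site (TSS), as a reads-per-million value (RPM) scaled to the reads in the autosomal peaks of the library. A value of 0 means that no peak was called there. Summed over 5 muscle fibre genes, H3K4me3 within 1 kb of the TSS was 0 to 0.157 RPM in cortex and 73.4 to 110.1 in gastrocnemius, and over 5 neuronal genes it was 88.0 to 135.8 in cortex and 7.75 to 15.04 in gastrocnemius. Differences are log2 ratios of gastrocnemius to cortex from edgeR, and a gene was called different at an adjusted p below 0.1 (Benjamini-Hochberg over all genes tested for the mark) with a log2 difference of at least 1 in size. Near the TSS the median log2 difference over all genes tested was -0.33 for H3K4me3, -0.30 for H3K27ac and -0.09 for H3K27me3. For this reason the difference relative to that median is given as well. In bulk tissue, fewer cells of a type that carries a mark and less of the mark per cell cannot be told apart.

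The upstream sequences of 6 members are shown first because these genes differ most plainly in how the marks sat on their starts. Promoter sequences from the RefSeq table (GRCm38.p6) matched 28 of the 39 genes. The 250 bases before the TSS are printed 5′ to 3′ in the direction of transcription, with each CpG dinucleotide in capitals. Col3a1 and Col6a3 carried H3K4me3 peaks in gastrocnemius but in no cortex library, Tnr, Ncan and Acan carried them in cortex but in no gastrocnemius library, and Bcan carried H3K4me3 and H3K27me3 peaks in every library of both tissues.
Col3a1, chr1:45311288-45311537, plus strand: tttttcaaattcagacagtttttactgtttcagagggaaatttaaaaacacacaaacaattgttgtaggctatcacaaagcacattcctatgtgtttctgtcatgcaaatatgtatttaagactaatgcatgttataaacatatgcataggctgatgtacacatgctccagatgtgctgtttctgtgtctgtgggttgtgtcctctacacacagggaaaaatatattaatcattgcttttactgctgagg
Col6a3, chr1:90843972-90844221, minus strand: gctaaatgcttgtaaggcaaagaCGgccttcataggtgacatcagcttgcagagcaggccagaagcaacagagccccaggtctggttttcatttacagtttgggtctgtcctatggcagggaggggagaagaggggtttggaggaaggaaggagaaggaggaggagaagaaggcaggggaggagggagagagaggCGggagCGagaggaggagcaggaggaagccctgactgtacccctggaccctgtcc
Tnr, chr1:159523519-159523768, plus strand: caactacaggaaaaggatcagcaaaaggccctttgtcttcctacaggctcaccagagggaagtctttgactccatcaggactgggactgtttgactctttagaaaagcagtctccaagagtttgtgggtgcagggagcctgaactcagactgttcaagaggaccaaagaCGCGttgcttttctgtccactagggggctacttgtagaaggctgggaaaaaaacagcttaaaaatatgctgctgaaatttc
Ncan, chr8:70120845-70121094, minus strand: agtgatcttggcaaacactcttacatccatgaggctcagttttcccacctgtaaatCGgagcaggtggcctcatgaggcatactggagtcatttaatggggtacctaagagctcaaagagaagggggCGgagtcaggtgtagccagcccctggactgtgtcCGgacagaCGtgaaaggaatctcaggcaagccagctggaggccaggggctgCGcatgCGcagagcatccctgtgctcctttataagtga
Acan, chr7:79052976-79053225, plus strand: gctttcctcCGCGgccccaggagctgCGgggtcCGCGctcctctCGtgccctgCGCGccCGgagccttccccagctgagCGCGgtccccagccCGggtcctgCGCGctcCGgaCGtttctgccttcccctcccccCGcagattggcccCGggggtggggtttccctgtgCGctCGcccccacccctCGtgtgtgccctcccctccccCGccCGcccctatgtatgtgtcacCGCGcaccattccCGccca
Bcan, chr3:88000357-88000606, minus strand: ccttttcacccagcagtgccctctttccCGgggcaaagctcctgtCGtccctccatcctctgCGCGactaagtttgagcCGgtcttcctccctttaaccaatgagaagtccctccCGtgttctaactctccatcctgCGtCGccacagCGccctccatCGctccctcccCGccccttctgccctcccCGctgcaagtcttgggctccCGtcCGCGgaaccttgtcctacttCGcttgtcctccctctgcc

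The Col3a1 stretch held 0 CpGs, Tnr 2, Col6a3 3 and Ncan 6, against 26 in Acan and 16 in Bcan. Scaled to base composition, the observed-to-expected CpG ratio was 0 for Col3a1, 0.147 for Tnr, 0.172 for Col6a3, 0.329 for Ncan, 0.81 for Acan and 0.808 for Bcan. The median over 32851 promoters of the table was 0.373, and 34% of them had a ratio of at least 0.6. Among the 28 members with a matched promoter, the median ratio was 0.493 for the 16 with an H3K4me3 peak in every library and 0.16 for the 6 with peaks in one tissue and none in the other (Col3a1, Col6a3, Tnr, Ncan, Acan and Hapln2). Also among these 28, the 6 with an H3K27me3 peak in every library (Col5a1, Col15a1, Col18a1, Bcan, Vcan and Acan) had a median ratio of 0.646, with values from 0.423 to 0.81. Of the 10 with a ratio of at least 0.6, however, 3 (Col5a1, Bcan and Acan) had H3K27me3 in every library. Col4a1, with the highest ratio of the 28 (0.8965), had it in 1 of 9 cortex and 6 of 10 gastrocnemius libraries, and Hspg2 in 6 and 0. Nid1, also among the 10, had no peak of any mark near its start in any library, so its start has no value. These are descriptions of few genes and were not tested. Lama2 shows the spread, since it held 0 CpGs in this stretch and had an H3K4me3 peak in every library.

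Within 1 kb of the TSS, most brain hyaluronan genes were higher in cortex for H3K4me3 and H3K27ac, part of the interstitial genes were higher in gastrocnemius, and few basement membrane genes were called. Of the 36 members tested for H3K4me3, 7 were higher in gastrocnemius and 7 in cortex. Over all 15931 genes tested, 7.21% were higher in gastrocnemius and 13.6% in cortex. By class, the calls higher in gastrocnemius were 5 of 11 interstitial, 1 of 12 basement membrane and 1 of 5 matricellular genes, and those higher in cortex were 7 of 8 brain hyaluronan genes. For H3K27ac, 5 of 34 members were higher in gastrocnemius and 6 in cortex, against 5.63% and 13.2% of 16986 genes. The 5 comprised 4 of 11 interstitial genes and 1 of 12 basement membrane genes, and the 6 were all brain hyaluronan genes, of 7 tested. A gene was tested only if at least 9 libraries of a mark had 10 or more reads, so a member with 10 or more reads in libraries of 1 tissue alone passed through the tissue where it is high and had to differ. These were 7 of the 14 called for H3K4me3 (Col3a1, Col6a3, Lum, Tnr, Ncan, Acan and Hapln2), 2 of the 11 called for H3K27ac (Tnr and Hapln1) and 5 of the 6 called for H3K27me3 (Col6a3, Lama5, Lamb2, Sparc and Tnr). Other called members had 10 or more reads in fewer than 5 libraries of the tissue where they are lower, and so passed mainly through the other tissue. These were 3 for H3K4me3 (Dcn, Thbs4 and Hapln1), 5 for H3K27ac (Col3a1, Col6a3, Dcn, Ncan and Hapln2) and 1 for H3K27me3 (Ncan). The counts of calls hold both kinds, whose levels are given without an edgeR p-value, and for the second kind Fisher's exact test of the presence of a peak, which had no such filter, is given. Scaled with TMM factors or by DESeq2, which bring the median of all genes close to 0, 10 members were higher in gastrocnemius for H3K4me3, with Col5a2, Col12a1 and Lamb2 added, and 7 or 8 for H3K27ac, with Lama5, Lamb2 and, by DESeq2, Col1a2 added, while the members higher in cortex were the same 7 and 6. The shares of all genes higher in gastrocnemius were then 9.19% and 9.43% for H3K4me3 and 7.01% and 7.39% for H3K27ac. With every read of an overlapping peak counted, 14 members were higher in gastrocnemius for H3K4me3 and 17 for H3K27ac, beside 11.2% and 21.5% of all genes. With the mouse as a block, 5 members were higher in gastrocnemius for H3K4me3. Lum then fell below the read filter and Lama4 missed the size threshold. Of all genes, 1105 were so called with the block and 1148 without it. Of all H3K4me3 calls, 34.6% were higher in gastrocnemius, against 46.0% with TMM factors and 47.4% by DESeq2, and of all H3K27ac calls 29.9%, against 39.4% and 40.6%.

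**Figure D1:**
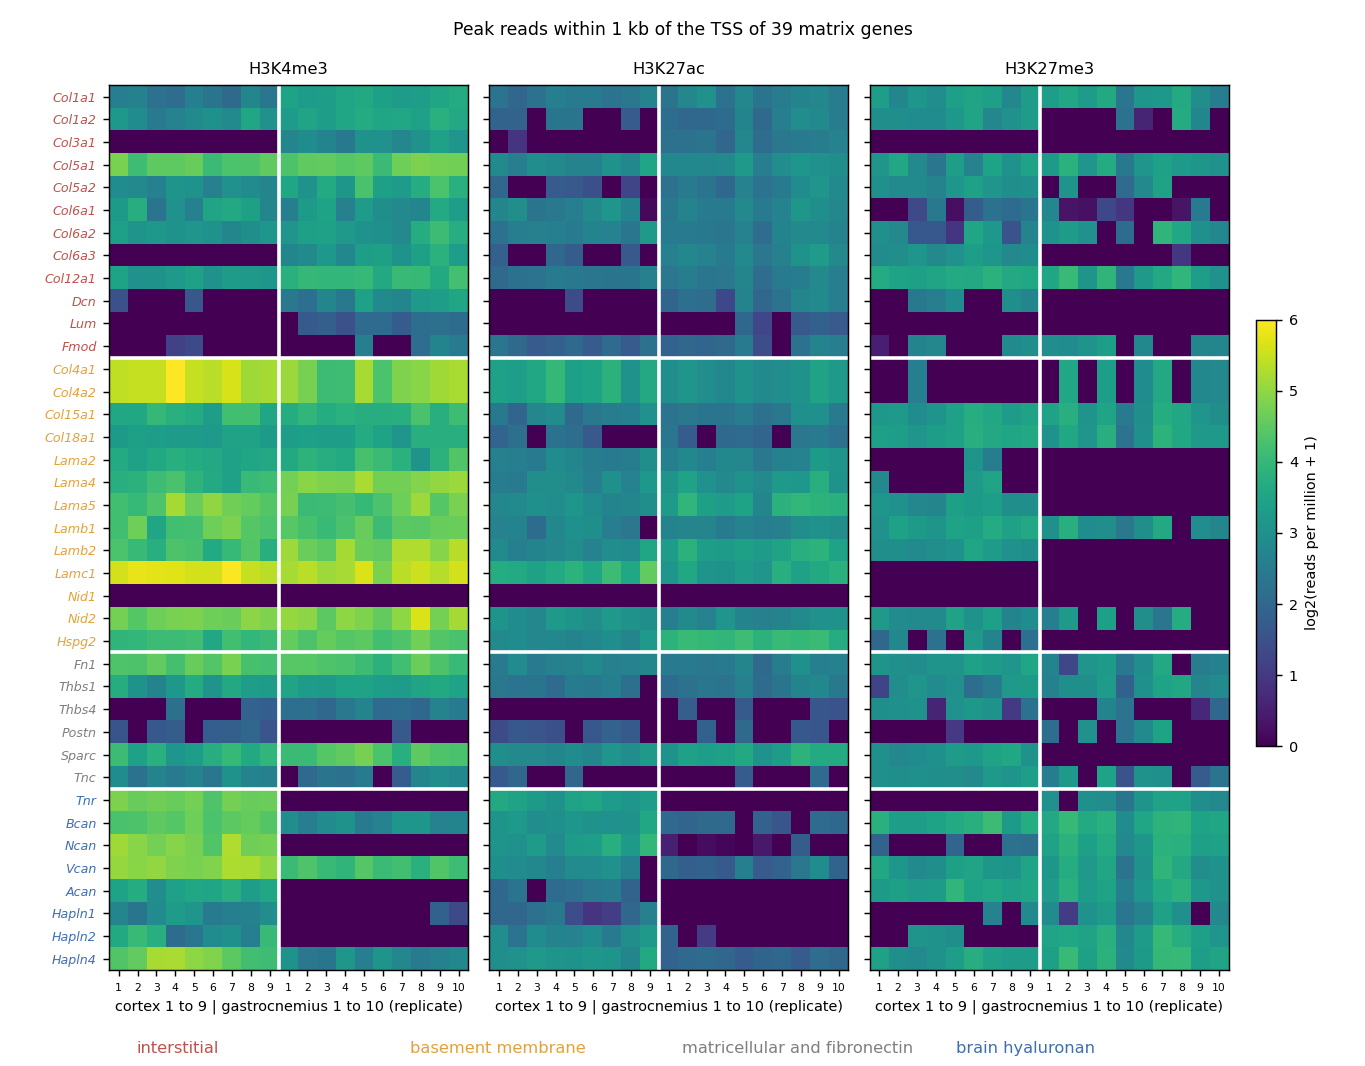
Peak reads within 1 kb of the TSS of each matrix gene (vertical) in each library (horizontal, cortex left and gastrocnemius right of the white line) for the 3 marks, as log2(RPM + 1), with gene names coloured by class. The dark blocks are windows without a called peak, such as H3K4me3 at Col3a1 and Col6a3 in all 9 cortex libraries, at Tnr, Ncan, Acan and Hapln2 in all 10 gastrocnemius libraries, and at Nid1 in every library of every mark.

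Tnr encodes tenascin-R, which crosslinks lecticans in the perineuronal net. Its TSS on chr1 carried 19.5 to 27.004 RPM of H3K4me3 in cortex, median 23.6, and no peak in any of the 10 gastrocnemius libraries. H3K27ac had the same pattern, with 7.44 to 11.2 RPM in cortex and no peak in gastrocnemius. For both marks, every cortex library was above every gastrocnemius library. H3K27me3 lay the other way round, with no peak in the 9 cortex libraries and 0 to 10.1 RPM, median 7.04, in gastrocnemius, where 9 of 10 libraries had a peak. Tnr was tested for H3K27me3 only because 9 libraries had enough reads, and without gastrocnemius replicate 5 it fell below the filter and was not tested.

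Ncan encodes neurocan, a lectican of the developing and adult brain. H3K4me3 was 19.8 to 37.9 RPM in cortex, median 26.4, with no peak in gastrocnemius. H3K27ac was 6.42 to 14.8 RPM in cortex, median 8.74, and 0 to 2.39 RPM in gastrocnemius, where 5 of 10 libraries had a peak (log2 difference -4.78 ± 0.76 SE, Fisher's exact test, adjusted p = 0.207). H3K27me3 was 0 to 3.77 RPM in cortex, where 4 of 9 libraries had a peak, and 6.09 to 13.4 RPM in gastrocnemius (log2 difference 2.80 ± 0.82, Fisher's exact test, adjusted p = 0.0517). The tissues did not overlap for any of the 3 marks at Ncan. Of the 6 members called for H3K27me3 at the TSS, 0 were called in the same direction as H3K4me3 or H3K27ac, and 3 (Tnr, Ncan and Col6a3) were called in the opposite direction for both. Of the 1303 genes called for H3K27me3 there, 0.921% were called in the same direction as H3K4me3 or H3K27ac and 43.7% in the opposite direction for both, so the members' counts are near those of all such genes.

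Acan, for aggrecan, the lectican most used to mark perineuronal nets, differed from Tnr and Ncan in its H3K27me3. H3K4me3 was 6.74 to 12.6 RPM in cortex, median 10.7, with no peak in gastrocnemius. H3K27me3 was 8.55 to 14.3 RPM in cortex and 5.04 to 13.6 in gastrocnemius, and the tissues overlapped (log2 difference -0.12 ± 0.16, adjusted p = 0.627). In cortex all 9 mice thus had both marks at the Acan start. H3K27ac had a peak in 7 of 9 cortex and 0 of 10 gastrocnemius libraries (Fisher's exact test, adjusted p = 0.00718), too few reads for the edgeR test.

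Bcan, for brevican, the most abundant lectican of adult brain, kept a weaker H3K4me3 peak in muscle. It measured 18.5 to 24.6 RPM in cortex and 4.65 to 8.10 in gastrocnemius (log2 difference -1.75 ± 0.11, or -1.42 relative to the median of all genes, adjusted p = 8.15e-12). H3K27ac was 6.66 to 10.8 RPM in cortex and 0 to 3.30 in gastrocnemius, where 8 of 10 libraries had a peak (log2 difference -1.73 ± 0.48, adjusted p = 0.00545). H3K27me3 was 8.61 to 16.3 RPM in cortex and 6.53 to 15.3 in gastrocnemius (log2 difference 0.02 ± 0.15). Vcan, for versican, which is also made outside the brain, was 26.8 to 37.3 RPM of H3K4me3 in cortex and 13.0 to 20.5 in gastrocnemius. The tissues did not overlap, but the log2 difference of -0.89 ± 0.09, or -0.56 relative to the median, missed the size threshold. Bcan and Vcan had both H3K4me3 and H3K27me3 peaks in each of the 9 cortex and 10 gastrocnemius samples.

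The link proteins fix lecticans to hyaluronan. Hapln1, the link protein of cartilage and of perineuronal nets, had 4.07 to 8.84 RPM of H3K4me3 in cortex and a peak in 2 of 10 gastrocnemius libraries (log2 difference -3.81 ± 0.90, Fisher's exact test, adjusted p = 0.00983). Hapln2, a link protein of myelinated fibres, had 3.36 to 15.8 RPM in cortex and no peak in gastrocnemius, and fell below the read filter without the lowest-scoring peaks. Hapln4, a brain link protein that partners with brevican, had 16.7 to 36.5 RPM in cortex and 4.02 to 8.05 in gastrocnemius (log2 difference -2.13 ± 0.18, -1.80 relative to the median, adjusted p = 7.79e-10). For each link protein every cortex library exceeded every gastrocnemius library. H3K27ac was also called higher in cortex for the link proteins, with no peak in gastrocnemius at Hapln1, and log2 differences of -3.96 ± 1.06 at Hapln2 and -1.41 ± 0.12 at Hapln4. At Hapln2 an H3K27ac peak was called in 2 of 10 gastrocnemius libraries (Fisher's exact test, adjusted p = 0.00718). H3K27me3 peaks were in 2 of 9 cortex and 9 of 10 gastrocnemius libraries at Hapln1, in 3 of 9 and 10 of 10 at Hapln2, and in every library at Hapln4.

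Ncan and Hapln4 lie end to end on chr8, transcribed towards each other, with starts 37.3 kb apart, so that both genes can be seen in one interval. In cortex, H3K4me3 covered both starts, and H3K27ac peaks at the Ncan start were 6.0 to 45.0 kb long. In gastrocnemius, H3K27me3 peaks over the Ncan start had a median length of 19.8 kb and those over the Hapln4 start 17.5 kb. No library of either tissue had 1 peak of H3K4me3 or H3K27me3 that reached both starts, and 1 cortex library had such a peak of H3K27ac, of 45.0 kb. Other neighbouring members, Bcan with Hapln2 (27.2 kb between starts), Vcan with Hapln1 (201.9 kb), Dcn with Lum (86.0 kb), Col3a1 with Col5a2 (191.7 kb) and Col6a1 with Col6a2 (102.4 kb), had no peak of any mark over both starts in any library.

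**Figure D2:**
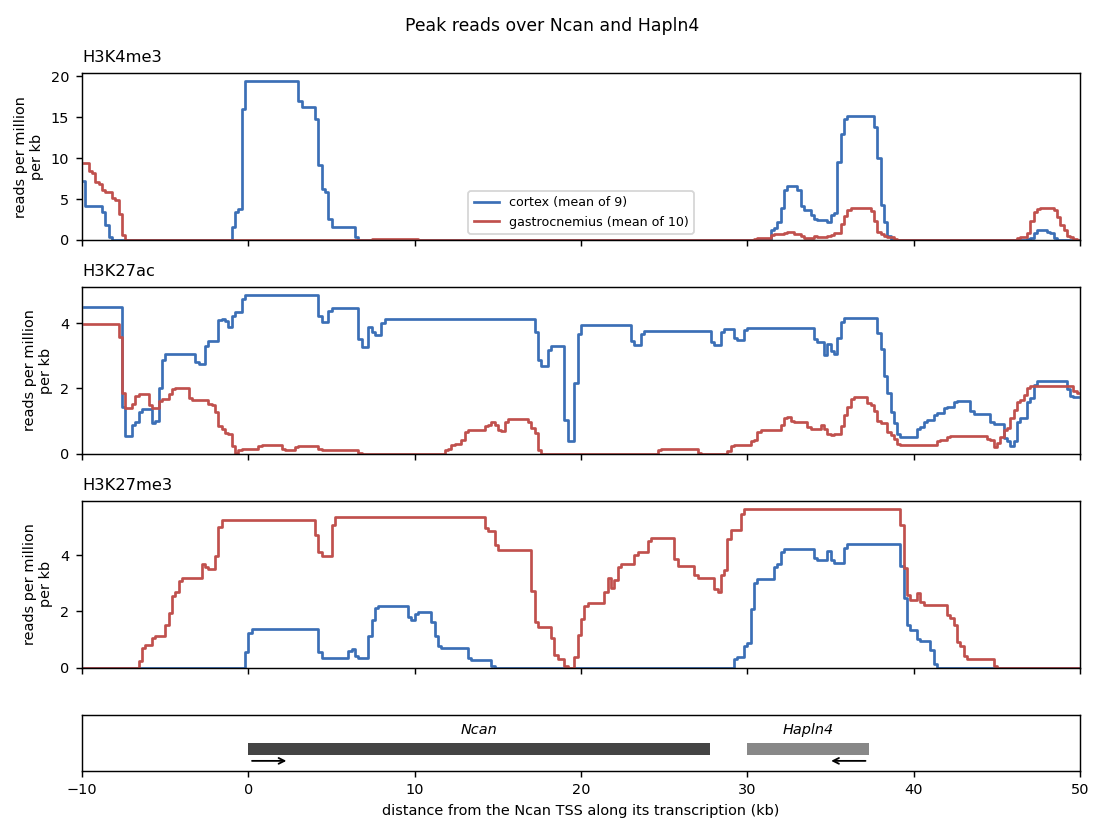
Mean peak reads in RPM per kb, in bins along the Ncan and Hapln4 genes, against distance in kb from the Ncan TSS, for cortex (blue, mean of 9 libraries) and gastrocnemius (red, mean of 10), with arrows for the direction of transcription. Reads are spread evenly over each peak, so steps are peak borders. H3K4me3 rises at both starts in cortex, and H3K27me3 covers both genes in gastrocnemius but mainly Hapln4 in cortex.

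Among the interstitial genes, Col3a1, Col6a3, Lum and Dcn had little or no mark of an active start in cortex. Col3a1, for the type III collagen of reticular fibres, had no H3K4me3 peak in cortex and 4.38 to 9.82 RPM in gastrocnemius, median 6.85. Its H3K27ac was called in 1 of 9 cortex libraries, at 0.901 RPM, and was 2.94 to 5.89 RPM in gastrocnemius (log2 difference 5.22 ± 0.94, Fisher's exact test, adjusted p = 0.00143). Every gastrocnemius library was higher than every cortex library for both marks. No H3K27me3 peak was called at its start in any library of either tissue.

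Col6a3, for the alpha 3 chain of the microfibrillar type VI collagen, had no H3K4me3 peak in cortex and 5.71 to 13.2 RPM in gastrocnemius, median 8.69. H3K27ac was 0 to 3.02 RPM in cortex, with a peak in 4 of 9 libraries, and 4.22 to 8.76 in gastrocnemius (log2 difference 2.32 ± 0.79, Fisher's exact test, adjusted p = 0.0791). H3K27me3 was 6.13 to 9.33 RPM in cortex and 0 to 0.97 in gastrocnemius, where 1 of 10 libraries had a peak. The tissues did not overlap for any mark, and the directions were those of Ncan with the tissues exchanged. Col6a1 and Col6a2, which encode the other chains of the same collagen, were not called for either active mark. Their H3K4me3 medians were 8.57 RPM in cortex and 7.84 in gastrocnemius for Col6a1, and 7.56 and 8.96 for Col6a2, with log2 differences of -0.08 ± 0.22 and 0.35 ± 0.17 and overlapping tissues.

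Dcn and Lum encode decorin and lumican, small proteoglycans that bind collagen fibrils. H3K4me3 at Dcn was 0 to 2.09 RPM in cortex, with a peak in 2 of 9 libraries, and 3.57 to 10.46 RPM in gastrocnemius (log2 difference 3.89 ± 0.86, Fisher's exact test, adjusted p = 0.00983). Its H3K27ac had a peak in 1 cortex library and 10 gastrocnemius libraries (log2 difference 4.38 ± 1.03, Fisher's exact test, adjusted p = 0.00143), and H3K27me3 in 5 cortex libraries and 0 of gastrocnemius (Fisher's exact test, adjusted p = 0.0517). Lum had no H3K4me3 peak in cortex and 0 to 3.65 RPM in gastrocnemius, with a peak in 9 of 10 libraries. No H3K27me3 peak was called at Lum in any library. Lum passed the filter through exactly 9 libraries, and it was not tested without the libraries whose name carries a run number, with the mouse as a block, without the lowest-scoring peaks or with equally many peaks from each library. Fmod, for the related fibromodulin, had H3K4me3 in 2 cortex and 4 gastrocnemius libraries and was not tested.

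Col1a1 and Col1a2 encode the chains of type I collagen, the main fibrous collagen. Col1a1 had 3.22 to 5.69 RPM of H3K4me3 in cortex and 8.997 to 11.9 in gastrocnemius (log2 difference 1.19 ± 0.13, 1.52 relative to the median, adjusted p = 7.12e-08), and the tissues did not overlap. Col1a2 had 4.49 to 10.47 RPM and 8.97 to 12.9 RPM (log2 difference 0.63 ± 0.14, adjusted p = 4.42e-04), short of the size threshold. H3K27me3 at Col1a1 was called in every library, with medians of 8.87 RPM in cortex and 8.44 in gastrocnemius, while at Col1a2 it was called in 9 of 9 cortex and 4 of 10 gastrocnemius libraries (Fisher's exact test, adjusted p = 0.0517). The chains of type V collagen, which starts fibril assembly, were also given different values. Col5a1 had a median of 21.7 RPM of H3K4me3 in cortex and 22.2 in gastrocnemius, whereas Col5a2 had 6.46 and 11.1 (log2 difference 0.90 ± 0.17, 1.23 relative to the median), with H3K27ac of 0 to 2.94 RPM in cortex and 3.06 to 7.69 in gastrocnemius (log2 difference 2.02 ± 0.73, adjusted p = 0.026). Without the libraries whose deposited name carries a run number, the H3K27ac difference of Col5a2 was 1.73 and was no longer called (edgeR adjusted p = 0.149). Col12a1, for a collagen on the surface of fibrils, had 7.20 to 10.1 RPM of H3K4me3 in cortex and 11.2 to 17.5 in gastrocnemius (log2 difference 0.78 ± 0.10, 1.11 relative to the median).

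Markers of cell types moved with these differences. Of 5 fibroblast markers, 4 (Dpt, Pi16, Clec3b and Tcf21) had no H3K4me3 at their starts in any cortex library and 1 (Tcf21) had none in any gastrocnemius library. Of the 5, 3 were called higher in gastrocnemius, and their summed H3K4me3 was 4.47 to 12.9 RPM in cortex and 20.2 to 35.0 in gastrocnemius. The sum in cortex is that of the remaining marker, Pdgfra, alone. The summed H3K27ac of the 5 markers was 3.95 to 11.4 and 17.1 to 23.4 RPM. Markers of oligodendrocytes summed to 68.9 to 93.7 RPM of H3K4me3 in cortex and 33.2 to 48.4 in gastrocnemius, and those of astrocytes to 24.1 to 36.6 and 14.3 to 21.4. The part of cell composition in the differences between matrix genes was not tested.

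**Figure D3:**
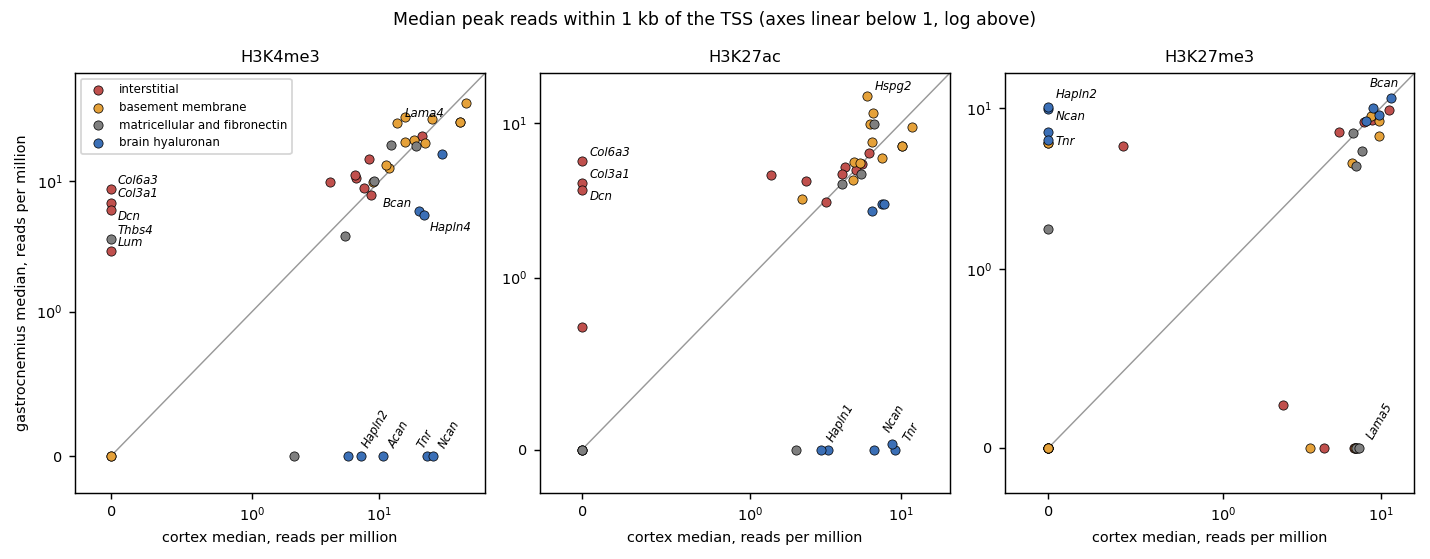
Median RPM within 1 kb of the TSS in cortex (horizontal) and gastrocnemius (vertical) for the 39 genes and each mark, coloured by class, with the line of equality; axes are linear below 1 and logarithmic above. Brain hyaluronan genes (blue) lie below the line for H3K4me3 and H3K27ac, with Tnr, Acan, Hapln1 and Hapln2 on the lower edge for both marks and Vcan, Bcan and Hapln4 above that edge. Tnr, Ncan, Hapln1 and Hapln2 lie on the left edge for H3K27me3, where the lower edge holds genes of the other classes such as Col6a3, Lama5, Lamb2 and Sparc.

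The interstitial and brain hyaluronan classes were also summed per library. The brain hyaluronan genes held 67.5% to 75.3% of the H3K4me3 reads of both classes in cortex, median 71.2%, and 17.1% to 25.1% in gastrocnemius, median 20.6%. For H3K27ac they held 55.9% to 65.4% in cortex and 9.87% to 21.4% in gastrocnemius. For H3K27me3 the order was turned round, with 37.8% to 47.3% in cortex and 56.2% to 68.1% in gastrocnemius. The tissues did not overlap for any mark. Since the interstitial class has 12 genes and the brain class 8, the shares compare tissues and not the classes with each other. The H3K4me3 sum of the interstitial genes was 54.8 to 76.45 RPM in cortex and 90.45 to 148.8 in gastrocnemius, and that of the brain genes was 136.5 to 168.3 and 25.5 to 32.9.

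**Figure D4:**
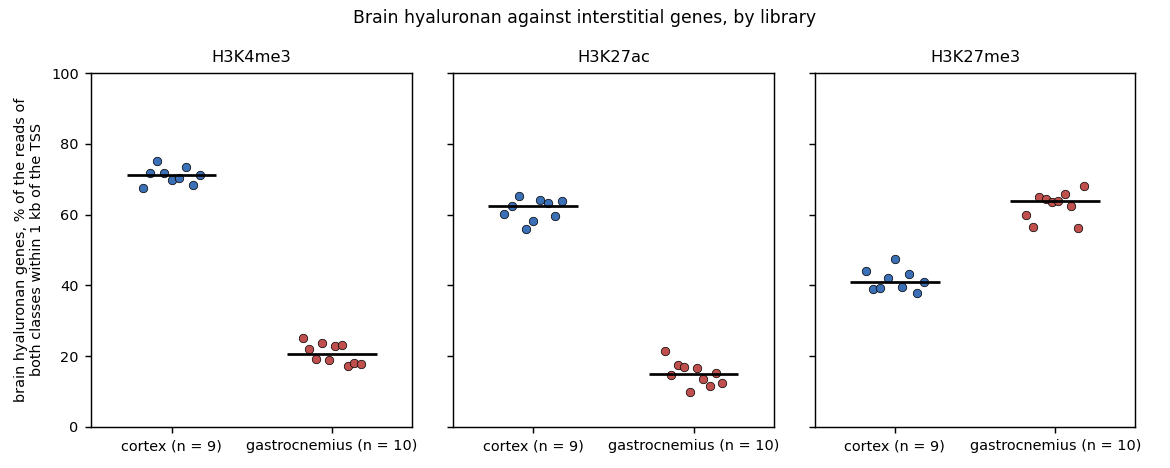
Share of the reads within 1 kb of the TSS of both classes that fell on the brain hyaluronan genes (vertical, %), in each library of cortex (blue, n = 9) and gastrocnemius (red, n = 10), with the median as a bar. The medians are 71.2% and 20.6% for H3K4me3, 62.4% and 14.9% for H3K27ac, and 41.0% and 63.7% for H3K27me3.

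Basement membrane genes had their starts marked in both tissues. H3K4me3 was called in every library at 12 of the 13 genes, with the exception of Nid1. The median log2 difference of the 12 tested was 0.15. Lamc1, for the laminin gamma 1 chain found in most laminins, had among the highest levels, 40.4 to 61.8 RPM in cortex and 26.5 to 50.7 in gastrocnemius (log2 difference -0.32 ± 0.11, 0.01 relative to the median of all genes). Col4a1 and Col4a2 encode the main type IV collagen chains and share one start region, with TSSs 0.021 kb apart on opposite strands, so that their windows hold the same H3K4me3 and H3K27ac peaks. Their shared H3K4me3 was 34.4 to 70.1 RPM in cortex and 16.2 to 36.6 in gastrocnemius (log2 difference -0.70 ± 0.17, -0.37 relative to the median). Neither difference reached the size threshold. At Lamc1 and at Col4a1 and Col4a2 the sign depends on how reads are assigned. With every read of an overlapping peak counted, the log2 differences were 0.09 and 0.62 for H3K4me3.

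Lama4, for the laminin alpha 4 chain of vascular basement membranes, was the basement membrane gene called for H3K4me3 at the TSS. It had 9.83 to 18.4 RPM in cortex and 25.2 to 36.8 in gastrocnemius, without overlap (log2 difference 1.03 ± 0.11, 1.36 relative to the median, adjusted p = 3.05e-08). With the mouse as a block the value was 0.9987, just under the size threshold, at an edgeR adjusted p of 3.24e-06, and without the libraries whose name carries a run number it was 0.9879. It was 0.9741 in a window of 2.5 kb and 0.987 with the run number as a covariate. Lamb2, for the laminin beta 2 chain of the neuromuscular junction and muscle basement membrane, was just under it, with 11.7 to 20.0025 RPM and 21.3 to 39.9 RPM (log2 difference 0.93 ± 0.14, 1.27 relative to the median). Hspg2, for perlecan, had 5.55 to 8.38 RPM of H3K27ac in cortex and 12.1 to 16.5 in gastrocnemius (log2 difference 1.24 ± 0.08, 1.54 relative to the median, adjusted p = 9.00e-11).

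Endothelial markers summed to 52.4 to 64.8 RPM of H3K4me3 in cortex and 76.0 to 129.0 in gastrocnemius, with 3 of 5 called higher in gastrocnemius and all 5 present in both tissues. Their part in the basement membrane values was not tested. Nid1, for nidogen 1, had no peak of any mark within 1 kb of its TSS in any of the 57 libraries. Its start lies in a stretch of chr13 of 518.4 kb, from 12939801 to 13458200, in which no library had a peak, so that its start has no value here.

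The H3K4me3 and H3K27ac peaks at the starts of most basement membrane genes were longer in gastrocnemius. Hspg2 had an H3K4me3 peak of 3.0 to 4.0 kb in cortex and of 15.8 to 27.6 kb in gastrocnemius, and an H3K27ac peak of 4.4 to 5.6 kb and 38.6 to 79.8 kb. At Col4a1 and Col4a2 the H3K27ac peak was 4.8 to 11.6 kb long in cortex and 23.0 to 161.6 kb in gastrocnemius. At Lamb2 it was 3.2 to 8.0 kb and 18.4 to 31.6 kb. These peaks reached beyond the window of 1 kb. Of 12 basement membrane genes with an H3K4me3 peak in every library, 9 had peaks that were longer in every gastrocnemius library than in any cortex library, as did 9 of 10 for H3K27ac. Over all genes with a peak in every library, this held for 9.75% for H3K4me3 and 11.3% for H3K27ac. The genes were Col4a1, Col4a2, Col15a1, Lama4, Lama5, Lamb2, Nid2 and Hspg2 for both marks, with Lamb1 for H3K4me3 and Lamc1 for H3K27ac. The exception in direction was Col18a1, whose median H3K4me3 peak was 1.8 kb in cortex and 1.7 kb in gastrocnemius. For H3K27me3, Col15a1 and Col18a1 had a peak in every library, with medians of 10.8 and 10.4 kb in cortex and 9.1 and 7.0 kb in gastrocnemius, and the ranges overlapped. Sparc, outside this class, also had longer peaks in every gastrocnemius library for both marks. Peaks were longer in gastrocnemius in general, with median lengths over all genes of 3.0 kb in cortex and 3.9 kb in gastrocnemius for H3K4me3, and 5.8 and 8.7 kb for H3K27ac. Of the 18 members with an H3K27ac peak in every library, Hapln4 was the 1 with a longer median in cortex, at 18.4 kb in cortex and 3.0 kb in gastrocnemius, with ranges of 3.0 to 45.0 and 1.0 to 30.4 kb that overlapped. Brain genes without a peak in every muscle library are not among the 18. Over the libraries with a peak, the median was also longer in cortex at Ncan (6.0 to 45.0 kb in cortex and 2.6 to 19.6 kb in gastrocnemius), at Bcan (7.0 to 26.4 and 2.0 to 6.6 kb) and at Vcan (4.4 to 5.0 and 3.4 to 5.8 kb). At Hapln2 it was shorter in cortex (medians of 2.8 and 5.4 kb), but only 2 gastrocnemius libraries had a peak. Those peaks, of 5.2 and 5.6 kb, lay within the cortex range of 1.6 to 11.2 kb. Col4a1 and Col4a2 share their peak and were each counted.

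At some basement membrane starts, H3K27me3 was found in cortex and not in gastrocnemius. Lama5, for the laminin alpha 5 chain, had 5.67 to 9.60 RPM in cortex and no peak in gastrocnemius. Lamb2 had 6.27 to 10.7 RPM in cortex and no peak in gastrocnemius. Hspg2 had a peak in 6 of 9 cortex libraries and 0 of 10 in gastrocnemius (Fisher's exact test, adjusted p = 0.0193). At Lama5 and Lamb2 all 9 cortex samples had H3K4me3 and H3K27me3 peaks together, and no gastrocnemius sample did. Col15a1 and Col18a1, for collagens that carry heparan or chondroitin sulphate chains in the basement membrane zone, had H3K27me3 in every library, with log2 differences of -0.06 ± 0.18 and -0.19 ± 0.18.

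Sparc and the thrombospondins are matricellular proteins, which regulate how cells act on the matrix rather than building it. Thbs4, for thrombospondin 4 of tendon and muscle, had 0 to 3.64 RPM of H3K4me3 in cortex, with a peak in 3 of 9 libraries, and 2.98 to 5.47 in gastrocnemius (log2 difference 1.99 ± 0.84, Fisher's exact test, adjusted p = 0.0373). Without the lowest-scoring peaks, or with equally many peaks from each library, Thbs4 fell below the read filter and was not tested. All 9 mice with both tissues had the higher value in gastrocnemius, although the tissues overlapped. Sparc, for osteonectin, which binds collagen, had H3K27me3 of 5.84 to 10.9 RPM in cortex and no peak in gastrocnemius, beside H3K4me3 of 7.94 to 16.4 and 12.8 to 26.1 RPM (log2 difference 0.64 ± 0.14, 0.98 relative to the median). Postn, for periostin, went the other way from the interstitial genes, with an H3K4me3 peak in 7 of 9 cortex and 1 of 10 gastrocnemius libraries (Fisher's exact test, adjusted p = 0.0645) at no more than 2.97 RPM. Fn1, for fibronectin, had medians of 19.3 RPM in cortex and 18.8 in gastrocnemius and overlapped. Thbs1 and Tnc, for thrombospondin 1 and tenascin-C, overlapped as well, with log2 differences of 0.09 ± 0.13 and -0.55 ± 0.54.

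For H3K27me3 near the TSS, 27 members could be tested, of which 2 were called higher in gastrocnemius (Tnr and Ncan) and 4 in cortex (Col6a3, Lama5, Lamb2 and Sparc). Among all 6140 genes tested the shares were 13.7% and 7.56%. With the mouse as a block, over the 9 mice with both tissues, 3 members were called higher in gastrocnemius (Ncan, Hapln1 and Hapln2) and 7 in cortex, the 4 named with Col1a2, Col5a2 and Thbs4 added, while 14.2% and 11.7% of all genes were. With equally many peaks taken from each library, Lamb2 and Sparc fell below the read filter and 2 members were higher in cortex, beside 8.18% of all genes. Sparc also fell below it without the lowest-scoring peaks. By the presence of a peak in each library, 4 of 35 members had H3K27me3 in more gastrocnemius libraries (Tnr, Ncan, Hapln1 and Hapln2) and 9 in more cortex libraries, against 12.2% and 9.92% of 11687 genes. The 9 were Col1a2, Col5a2, Col6a3, Dcn, Lama5, Lamb2, Hspg2, Thbs4 and Sparc. All 4 members with more peaks in muscle were brain hyaluronan genes, and none of the 9 with more peaks in cortex was. Without the libraries whose name carries a run number, 2 members had H3K27me3 in more gastrocnemius libraries, beside 7.33% of all genes.

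The presence of H3K4me3 peaks differed for 11 of 38 members. It was found in more gastrocnemius libraries for 5 (Col3a1, Col6a3, Dcn, Lum and Thbs4), where 3.38% of 17248 genes were so called, and in more cortex libraries for 6 (Tnr, Ncan, Acan, Hapln1, Hapln2 and Postn), where 5.11% were. For H3K27ac, 3 members had a peak in more gastrocnemius libraries (Col3a1, Col6a3 and Dcn) and 4 in more cortex libraries (Tnr, Acan, Hapln1 and Hapln2), beside 4.26% and 9.45% of 19096 genes. Without the lowest-scoring peaks, and with equally many peaks from each library, the members with peaks in more gastrocnemius libraries were 3 and 3 for H3K4me3 (4.46% and 3.72% of all genes) and 5 and 6 for H3K27ac (4.72% and 5.65%).

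H3K4me3 and H3K27me3 often lay at the same start in the same animal. In cortex, 22 of the 39 members (56.4%) had peaks of both marks in at least 5 of the 9 mice, while 11.6% of all 26089 genes did. In gastrocnemius it was 17 members (43.6%) in at least 6 of 10 mice, and 11.2% of all genes. The 22 comprised 7 interstitial, 7 basement membrane, 4 matricellular and 4 brain hyaluronan genes, and the 17 comprised 5, 6, 3 and 3. Whether both marks sat on the same chromosomes or in different cells of the tissue cannot be told apart. The 9 genes that had both in every sample of both tissues were Col1a1, Col5a1, Col12a1, Col15a1, Col18a1, Thbs1, Bcan, Vcan and Hapln4. Acan, Lama5, Lamb2 and Sparc had both in all 9 cortex samples and in 0 of 10 gastrocnemius samples, Acan because H3K4me3 was missing in muscle and the others because H3K27me3 was.

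Over whole gene bodies, measured in RPM per kb of gene, more members were called, among them much of the basement membrane class. For H3K4me3, 18 of 36 members were higher in gastrocnemius and 6 in cortex, where 10.7% and 15% of 16608 genes were. For H3K27ac, 15 of 37 were higher in gastrocnemius and 8 in cortex, where 15.6% and 19.7% of 17463 genes were. For H3K27me3, 4 of 31 were higher in gastrocnemius and 15 in cortex, where 20.6% and 16.1% of 7849 genes were. With the mouse as a block, 4 members were higher in gastrocnemius for H3K27me3 and 16 in cortex, with Col5a2 added. Of all genes, 1578 and 1603 were then called, against 1615 and 1263 without the block. Of the members tested over the gene, 5 passed the filter in 1 tissue alone for H3K4me3 (Col3a1, Col6a3, Lum, Acan and Hapln1), 2 for H3K27ac (Acan and Hapln1) and 5 for H3K27me3 (Lama5, Lamb2, Hspg2, Sparc and Tnr), and these had to differ once tested. With fewer than 5 libraries at 10 reads in the lower tissue, Dcn and Ncan for H3K4me3, Col3a1, Dcn and Tnc for H3K27ac, and Col1a2, Col6a1, Col6a3, Col4a1 and Col4a2 for H3K27me3 passed mainly through the other tissue, and no edgeR p-value is given in support of either kind. Without the libraries whose name carries a run number, 13 members were higher in gastrocnemius for H3K4me3, beside 11.2% of all genes, and 11 for H3K27ac, beside 15%. The log2 differences that then missed the threshold were 0.78 for Col1a2, 0.96 for Col5a2, 0.97 for Col6a2 and 0.83 for Thbs1 in H3K4me3, and Lum was not tested. In H3K27ac they were 1.43 for Col1a2 (edgeR adjusted p = 0.224), 1.54 for Col5a2 (adjusted p = 0.181), 0.86 for Col6a1 and 0.56 for Thbs1 (adjusted p = 0.211). Tnc, higher in cortex for H3K27ac over the gene at a log2 difference of -2.46, was not called by DESeq2 (-2.49, adjusted p = 0.121). It was also not called without the library of cortex replicate 9 (-2.41, edgeR adjusted p = 0.109). With equally many peaks from each library Tnc fell below the read filter, as did Acan for H3K27ac and Lum for H3K4me3. Without the first 1 kb of the gene, Acan fell below it for H3K4me3 and H3K27ac and Col1a2 for H3K27me3, and Hapln2 missed the size threshold for H3K27ac at a log2 difference of -0.974. The basement membrane class contributed 7 of 12 for H3K4me3 and 7 of 13 for H3K27ac, all higher in gastrocnemius. In 10 of the 39 members the body, or the 1 kb beside it, holds the annotated start of another gene, for example Usp19 beside Lamb2, whose marks are counted with it.

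Hspg2, for perlecan, was separated for each mark. Its H3K4me3 over the gene was 0.17 to 0.318 RPM per kb in cortex and 2.11 to 2.88 in gastrocnemius (log2 difference 3.33 ± 0.10, adjusted p = 3.50e-17). Its H3K27ac was 0.574 to 0.996 and 3.54 to 5.26 RPM per kb (log2 difference 2.38 ± 0.09, adjusted p = 1.33e-14). Its H3K27me3 was 0.653 to 1.80 RPM per kb in cortex with no peak in gastrocnemius. No library of one tissue reached the range of the other for any mark.

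Nid1, without a value at its start, could be measured along part of its body. The first 20.6 kb of the 74.7 kb of the gene lie in the stretch without peaks, and the values per kb are over the whole length. H3K27ac was 0 to 0.124 RPM per kb in cortex, with a peak in 5 of 9 libraries, and 0.415 to 1.30 in gastrocnemius (log2 difference 3.86 ± 0.66, adjusted p = 3.14e-05). Nid2, for the related nidogen 2, had 0.0651 to 0.19 and 0.404 to 1.32 RPM per kb (log2 difference 2.70 ± 0.24, adjusted p = 4.30e-09), although its start did not differ by the size threshold. The H3K27ac difference at the Nid2 start was -0.25, but 0.66 in a window of 2.5 kb. With every read of overlapping peaks counted it was 1.47. H3K27me3 over Nid2 was 2.08 to 2.77 RPM per kb in cortex and 0 to 0.96 in gastrocnemius (log2 difference -2.38 ± 0.55, adjusted p = 0.0016). Both nidogens, which link the laminin and collagen IV networks, thus carried more H3K27ac along the gene in muscle.

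Of the other laminin genes, Lama4 had 0.0605 to 0.206 RPM per kb of H3K27ac in cortex and 0.533 to 1.11 in gastrocnemius (log2 difference 2.502 ± 0.22, adjusted p = 3.84e-09). Lamc1 had 1.10 to 1.60 and 2.71 to 3.12 RPM per kb (log2 difference 1.22 ± 0.06, adjusted p = 1.20e-12). Lama5 had 0.43 to 0.769 RPM per kb of H3K4me3 in cortex and 1.397 to 2.28 in gastrocnemius (log2 difference 1.58 ± 0.12, adjusted p = 1.42e-10). None of these overlapped between tissues. Col4a1 and Col4a2 were the members outside the brain class whose H3K27me3 over the gene was higher in gastrocnemius, with peaks in 7 and 9 of 10 gastrocnemius libraries and in 2 and 3 of 9 cortex libraries (log2 differences 4.75 ± 1.62 and 3.88 ± 1.33), beside H3K27ac differences of 1.60 ± 0.13 for Col4a1, which was called, and 0.98 ± 0.06 for Col4a2, just under the size threshold. The H3K27me3 reads of Col4a1 passed the filter through exactly 9 libraries. They fell below it without the first 1 kb of the gene, without the libraries whose name carries a run number and with equally many peaks from each library, as did those of Col4a2 in the last case.

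H3K27me3 lay along the bodies of part of the interstitial genes in cortex. Of the 12 genes, 8 had reads there in all 9 cortex libraries, Dcn in 5, Fmod in 4, and Col3a1 and Lum in none. Of the 9 tested, 6 were called higher in cortex, where 16.1% of all genes were, and 0 in gastrocnemius. Among the 6, Col1a2, Col6a1 and Col6a3 passed the read filter mainly through cortex. Col1a1, with a log2 difference of 0.20, and Fmod, with 1.403, had the higher median in gastrocnemius and were not called. Col6a3 had 1.72 to 2.66 RPM per kb in cortex and 0 to 0.284 in gastrocnemius (log2 difference -4.85 ± 1.10). Col6a1 had 1.07 to 2.29 and 0 to 0.813 RPM per kb (log2 difference -4.13 ± 1.24), and Col6a2 0.777 to 2.38 and 0 to 0.782 (log2 difference -2.40 ± 0.51, adjusted p = 8.04e-04). The 3 chains of type VI collagen, of which Col6a3 was the one called at the TSS, were thus all higher in cortex for H3K27me3 over the gene. Col5a1 was also higher, with a log2 difference of -2.01 ± 0.32 (adjusted p = 4.16e-05). In all, 10 members were called higher in gastrocnemius for H3K4me3 and lower there for H3K27me3 over the gene (Col1a2, Col6a2, Col6a3, Col12a1, Col15a1, Lama5, Lamb2, Hspg2, Thbs4 and Sparc), and 2 the other way (Tnr and Ncan), of 30 tested for both marks. Over the 5028 genes tested for both marks, 9.84% and 20% were called so. Among the 10, Lama5, Lamb2, Hspg2 and Sparc passed the H3K27me3 filter in cortex alone and had to differ once tested. Col1a2 and Col6a3 passed it mainly through cortex, and Col6a3 passed the H3K4me3 filter in gastrocnemius alone. Among the 2, Tnr passed the H3K27me3 filter in gastrocnemius alone, and Ncan the H3K4me3 filter mainly through cortex. The first count was 9 with TMM factors, beside 9.86% of all genes. There the H3K27me3 of Thbs4 missed the threshold (log2 difference -2.12, edgeR adjusted p = 0.11, against -2.26 without the factors). The count was 7 without the libraries whose name carries a run number, where Col1a2, Col6a2 and Col12a1 were lost, beside 11.1%, and 7 with equally many peaks from each library, where Col12a1, Col15a1 and Thbs4 were lost, beside 9.39%. It rose to 11 with the mouse as a block, where Col5a2 was added, beside 11.1%, to 11 without the first 1 kb of the gene, where Col1a2 was lost and Col5a1 and Nid2 were added, beside 12.4%, and to 12 with no filter on low counts, where Dcn and Lama4 were added, beside 10.8%.

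The brain genes kept their order over the gene. Ncan had 2.57 to 3.39 RPM per kb of H3K4me3 in cortex and 0 to 0.171 in gastrocnemius, with reads in 1 library, and Tnr 0.166 to 0.2 and 0 to 0.011, with reads in 7. H3K27me3 over Tnr, a gene of 401.2 kb, was 1.39 to 2.21 RPM per kb in gastrocnemius with no peak in cortex, and over Ncan it was 2.97 to 5.27 and 0 to 1.20 (log2 difference 2.80 ± 0.70, adjusted p = 0.00295). Hapln2 did not pass the size threshold for H3K4me3 over its short body, with 7.18 to 9.14 RPM per kb in cortex and 3.35 to 7.09 in gastrocnemius, although gastrocnemius had no peak within 1 kb of its TSS. Acan and Hapln1 had no peak of H3K4me3 or H3K27ac over the gene in any gastrocnemius library.

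**Figure D5:**
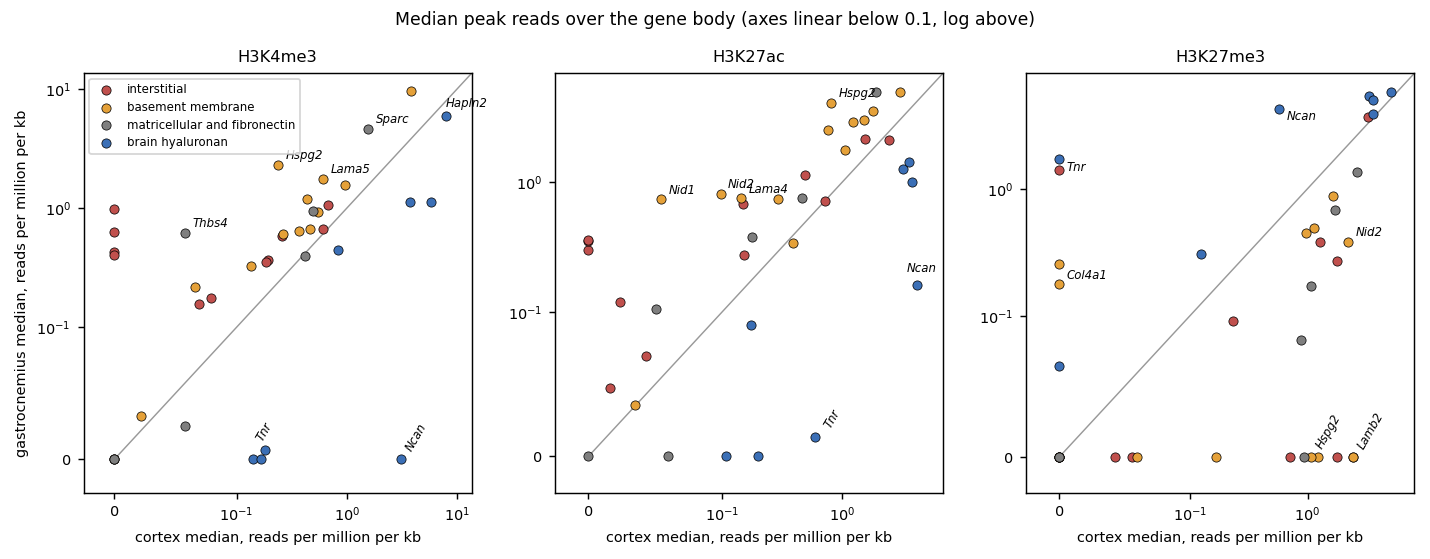
Median peak reads over the gene body in RPM per kb, cortex (horizontal) against gastrocnemius (vertical), for the 39 genes and each mark, coloured by class, with the line of equality; axes are linear below 0.1 and logarithmic above. For H3K4me3 and H3K27ac most basement membrane genes (orange) lie above the line and brain hyaluronan genes (blue) below it, and for H3K27me3 the brain hyaluronan genes lie above it.

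A further 80 matrix genes were examined to see where the members stand. Near the TSS, 14 of 66 tested (21.2%) were higher in gastrocnemius for H3K4me3 and 8 (12.1%) in cortex, beside 19.4% and 19.4% of the members and 7.21% and 13.6% of all genes. For H3K27ac it was 8 and 12 of 68 (11.8% and 17.6%), beside 14.7% and 17.6% of the members and 5.63% and 13.2% of all genes. For H3K27me3 it was 3 and 1 of 57 (5.26% and 1.75%), beside 7.41% and 14.8% of the members and 13.7% and 7.56% of all genes. Of the calls among them, 3 of 22 for H3K4me3, 7 of 20 for H3K27ac and 2 of 4 for H3K27me3 were of genes that passed the filter in 1 tissue alone, among them Omd, Aspn, Ogn, Fbn2 and Reln for H3K27ac and Cspg5 for H3K27me3. A further 3 calls for H3K4me3, 8 for H3K27ac and 2 for H3K27me3 had 10 or more reads in fewer than 5 libraries of the lower tissue. The genes of these calls passed mainly through the other tissue. Omd and Aspn, for the small proteoglycans osteomodulin and asporin, had 3.80 to 6.39 and 2.66 to 5.27 RPM of H3K27ac in gastrocnemius and no peak in cortex, as did Ogn, for osteoglycin, with 2.54 to 4.45 RPM. Fbn2, for fibrillin 2, had 6.07 to 9.50 RPM of H3K27ac in cortex and no peak in gastrocnemius, and its H3K4me3 was 27.7 to 35.1 and 5.40 to 9.94 RPM (log2 difference -2.07 ± 0.10, adjusted p = 7.58e-14). Reln, for reelin of the brain matrix, had 2.22 to 7.26 RPM of H3K27ac in cortex and none called in gastrocnemius. Cspg5, for the brain proteoglycan neuroglycan C, had H3K27me3 of 0 to 12.3 RPM in gastrocnemius with no peak in cortex, as at Tnr. Over the gene body, 33.8% of 68 were higher in gastrocnemius for H3K4me3 and 17.6% in cortex, beside 50% and 16.7% of the members. For H3K27ac it was 25% and 26.3% of 76, beside 40.5% and 21.6%. For H3K27me3 it was 11.1% and 23.8% of 63, beside 12.9% and 48.4%. Of all genes, 10.7% and 15%, 15.6% and 19.7%, and 20.6% and 16.1% were called. Genes that passed alone or mainly through 1 tissue gave 6 of 35, 13 of 39 and 5 of 22 of these calls.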

How the data were processed

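Chromatin immunoprecipitation sequencing data were used as the peak lists that the authors deposited, 1 per library. The reads were aligned by the authors to mm10 with BWA, filtered with SAMtools, and peaks were called per library with epic2, without pooling replicates. For each peak the deposited files give a count of reads (raw, not normalized) and an epic2 score, which served only to rank peaks. Reads outside called peaks are not analysed here, so a region without a peak is at 0 and a weak signal and none cannot be told apart.

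The reads of each peak were shared evenly along it, and the part within 1 kb of the TSS, or within the gene from start to end, was summed and rounded. Library size was the count of reads in autosomal peaks, with no further factor. Genes with at least 10 reads in at least 9 libraries of a mark were tested with edgeR 4.0.16 (quasi-likelihood test, R 4.3.3, limma 3.58.1), 9 cortex against 10 gastrocnemius libraries. The presence of a peak was tested with a two-sided Fisher's exact test over libraries. Both were adjusted by Benjamini-Hochberg over all genes tested. DESeq2 1.42.0, TMM factors and other windows, filters and library sets were run as alternatives.

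Values over libraries were written out for the 3 members of each class and mark with the largest difference among those called, the others being given more briefly, and up to 3 further matrix genes were named per direction. The members, classes and lists were chosen with earlier results of these data known. The replicate block was the mouse, from the animal code in the deposited names, for the 9 mice with both tissues. Deviations of the 2 libraries of a mouse from their tissue means correlated at -0.069 to 0.0647 for H3K4me3, -0.0606 to 0.069 for H3K27ac and 0.0581 to 0.155 for H3K27me3. Tissues of 1 mouse are not independent, and the fit without the block treats them as if they were.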

Additional observations from a re-analysis of the deposited data

Results flagged for a closer look

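In 35 groups of 9 or 10 libraries of a named gene, 4 had a library far from the others by Dixon's criterion, which chance meets in about 1 of 20 groups. For H3K4me3 at Col6a3, gastrocnemius replicate 9 had 13.17 RPM, where the other 9 libraries had 5.706 to 9.64. The other 3 were in the shallow H3K27ac library of cortex replicate 9. It had 8.378 RPM at Hspg2, where the others had 5.55 to 6.656, 10.84 RPM at Bcan, where the others had 6.661 to 8.535, and 11.53 RPM at Hapln4, where the others had 5.731 to 8.37. The part of depth in these values was not tested.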

How the results depend on the processing

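Of the differences of single genes under all alternatives, 1201 kept their direction and their side of the threshold, 40 passed it anew, 22 no longer passed it and 11 changed sign. Signs changed near the TSS only. With all reads of every overlapping peak counted, H3K4me3 was 0.62 for Col4a1 and Col4a2 and 0.0871 for Lamc1, and H3K27ac was 3.26 for Col4a1 and Col4a2, 1.39 for Lamc1 and 1.47 for Nid2. DESeq2 gave 0.006514 for H3K4me3 at Lamc1 and 0.023 for H3K27ac at Nid2, TMM factors 0.014 and a window of 2.5 kb 0.66 for Nid2. In number of members higher in gastrocnemius near the TSS, counting all reads of overlapping peaks gave 14 for H3K4me3, 17 for H3K27ac and 4 for H3K27me3, where 11.2%, 21.5% and 22.2% of all genes were, and DESeq2 gave 8 for H3K27ac, where 7.39% were. For H3K27me3, no filter on low counts gave 4 higher in gastrocnemius and 8 in cortex (26.6% and 20.3% of all genes), the libraries without a run number gave 1 in gastrocnemius (10.1%), leaving out the library of unusual depth gave 1 (11.1%), and equally many peaks per library gave 2 in cortex (8.18%). By presence, members with peaks in more gastrocnemius libraries were 3 for H3K4me3 both without the lowest-scoring peaks (4.46% of all genes) and with equally many peaks (3.72%), 5 and 6 for H3K27ac (4.72% and 5.65%), and 2 for H3K27me3 among libraries without a run number (7.33%). The causes were not tested. With the replicate block by mouse, 7 members were higher in cortex for H3K27me3 near the TSS, beside 11.7% of all genes. With the block, Lama4 missed the size threshold (H3K4me3, 0.9987), and calls fell below the read filter for Lum in H3K4me3, near the TSS and over the gene, and for Tnr in H3K27me3 near the TSS. Losses to the read filter, which are not among the 22, were 9 with equally many peaks per library, 4 without a run number, 4 without the first 1 kb of the gene, 4 without the lowest-scoring peaks and 1 without the library of unusual depth. No leave-one-out fit was run, since each tissue had 9 or 10 libraries. An H3K27ac peak was called at 24 members in cortex replicate 9, against up to 34 in other cortex libraries, and the part of depth in this was not tested.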
